A study of Homo sapiens with 6 samples.

Results

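The data describe U6 small nuclear RNA (snRNA) and 3 of the proteins that finish, modify and recycle it. The genes were the 5 full-length U6 genes RNU6-1, RNU6-2, RNU6-7, RNU6-8 and RNU6-9, and the protein-coding genes USB1, SART3 and METTL16. They were found by matching gene symbols to the gene identifiers of the deposited table, and make up 8 of 63190 genes and 47 of 207167 transcripts. Each U6 gene had 1 transcript, USB1 and SART3 had 16 each and METTL16 had 10.

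RNA-seq of rRNA-depleted total RNA was made from 3 libraries of D391N-expressing cells and 3 libraries of control cells. DIS3L2 is an exoribonuclease that degrades RNAs carrying untemplated uridines at the 3′ end, and D391N is its catalytically inactive form, overexpressed from a construct integrated in the HEK293T-Rex line, a human embryonic kidney line with doxycycline-inducible expression. The study's methods state that doxycycline induced the DIS3L2 constructs and do not state whether the control HEK293T-Rex cells of the RNA-seq received it, and the sample labels call the line HEK293. No source used here says that the cells' own DIS3L2 gene was removed. Each group came from 1 line, so the construct, its induction and the line cannot be told apart. Sources name no separate cultures, so p-values measure only the spread between these libraries, which may be technical.

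Levels are given in RPKM (reads scaled by transcript length and by library size), and where 3 values follow each other they are those of replicates 1, 2 and 3 in that order. As a check of the labels, the DIS3L2 level was 11.8, 12.9 and 14.6 RPKM in the control replicates, and all D391N libraries were far higher, with 369, 467 and 512 RPKM. Of the markers of the line, LIN28B lay between 15.8 and 31.9 RPKM, while PAX2 (1.31 to 1.93 RPKM) and NEFM (0.241 to 0.638 RPKM) lay at the levels of the markers of other cells, PTPRC (1.34 to 1.77 RPKM), ALB (0.596 to 1.13 RPKM) and COL1A1 (2.03 to 4.05 RPKM). Depth relative to control replicate 2 was between 0.5995 and 0.944 in the other 5 libraries. Transcripts under 200 nt took 2.43%, 0.342% and 1.52% of the length-weighted signal in the D391N replicates and 3.18%, 3.08% and 2.89% in the control replicates. D391N replicate 2 thus held the least signal from short RNAs.

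U6 is the snRNA at the catalytic centre of the spliceosome, the complex that removes introns. RNA polymerase III makes it with a tail of uridines, which the La protein (SSB) binds first. The terminal uridylyltransferase TUT1 extends this tail and the exonuclease USB1 trims it, leaving an end that the LSM2 to LSM8 ring holds. METTL16 methylates an adenosine in the part of U6 that pairs with the 5′ splice site, and SART3 helps U6 to pair with U4 again after each round of splicing.

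The 5 U6 genes lay on 3 chromosomes of GRCh38.p14, in the RefSeq annotation of that build. RNU6-1 lay on chromosome 15, RNU6-2 and RNU6-9 lay on chromosome 19, and RNU6-7 and RNU6-8 lay on chromosome 14 with 1011 bases between them. Each was annotated as an snRNA gene of 107 bases. USB1 lay at chr16:57999603-58021618, SART3 at chr12:108522214-108561173 and METTL16 at chr17:2415715-2511888.

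The 5 U6 transcripts gave 2 sequences, and copies that share a sequence could not be told apart by it. RNU6-1, RNU6-2 and RNU6-9 were identical over all 107 bases, and so were RNU6-7 and RNU6-8. The sets differed by 1 base. RNU6-671P, annotated as a U6 pseudogene of 70 bases, was an exact part of all 5 genes. The transcripts were compared, by transcript identifier, in GENCODE v44 in its GRCh37 lift.

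Among all 1294 RNU6 copies of the table, 7 had the RNU6-1 sequence, namely the 3 full-length genes and the pseudogene copies RNU6-3P, RNU6-4P, RNU6-5P and RNU6-6P. RNU6-671P was the only copy that was a shorter exact part of a full-length gene. BitSeq, the program that made the deposited levels, divides a read that matches several transcripts among them, so the level of a single copy depends on the others. For this reason the 5 genes were also summed.

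The summed level of the 5 U6 genes was lower in each D391N-expressing library than in each control library. It was 159, 37.5 and 37.7 RPKM in the D391N replicates. It was 618, 617 and 196 RPKM in the control replicates. Control replicate 3 was the lowest control and D391N replicate 1 the highest D391N library, and these neighbours lay close to each other. The control mean was 477 ± 243 RPKM and the mean of the D391N libraries was 77.9 ± 69.9 RPKM (SD, n = 3 each). On the log2(RPKM + 0.1) scale the difference of means was -2.79, or 6.93-fold, with p = 0.10 in a two-sided exact permutation test, the smallest p that 3 against 3 libraries can give. Of all genes tested below, 20.7% were also lower in each D391N library.

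**Figure D1:**
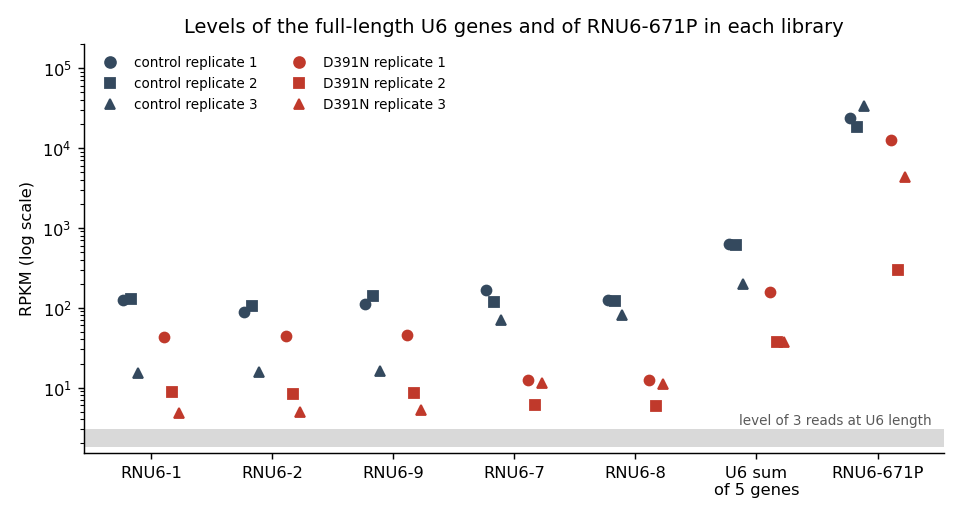
RPKM on a log axis of each full-length U6 gene, their sum and RNU6-671P in each of the 6 libraries, control libraries in dark grey and D391N libraries in red, with the marker shape giving the replicate. The grey band is the level that 3 reads give a 107-nt transcript in the 6 libraries, 1.83 to 3.05 RPKM, and RNU6-7 and RNU6-8 are the full-length genes whose conditions do not overlap. For a full-length gene, a value above the band does not show that 3 reads were assigned to it. Estimates from BitSeq's posterior variance were lower.

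Values are shares of a library, so less U6 per cell and more of other RNA per cell, or fewer cells with U6, cannot be told apart. The library with the least signal from short RNAs, D391N replicate 2, had a U6 sum like that of D391N replicate 3, and D391N replicate 1 had the most of both among the D391N libraries. The part of the short RNA signal in the U6 difference was not tested. The difference was -3.48 without D391N replicate 1 and -3.34 without control replicate 3, and between -2.52 and -2.44 without any other single library.

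RNU6-7 and RNU6-8, the neighbouring genes on chromosome 14, were the members past the threshold when each gene was tested by its summed level over the whole table. RNU6-7 had 12.6, 6.10 and 11.6 RPKM in the D391N replicates and 168, 119 and 69.2 RPKM in the control replicates. RNU6-8 had 12.4, 5.85 and 11.1 RPKM in the D391N replicates and 123, 122 and 80.0 RPKM in the control replicates. In both genes every D391N library was below every control library. In limma (linear model with empirical Bayes trend, Benjamini-Hochberg adjustment over 20714 genes), RNU6-7 fell by 3.52 on the log2 scale (SE 0.40, adjusted p = 0.047) and RNU6-8 fell by 3.50 (SE 0.32, adjusted p = 0.028). These SEs and p-values measure the spread between libraries only. They leave out the error with which BitSeq divided reads among copies, which is given below. The same limma model over 54671 single transcripts gave Benjamini-Hochberg adjusted p = 0.067 for RNU6-7 and 0.050, just above the threshold, for RNU6-8.

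These were 2 of the 8 member genes called at an adjusted p under 0.05, beside 0.14% of all genes tested, or 29 genes, of which 28 (0.135% of those tested) were lower in D391N-expressing cells. The conditions did not overlap in the same 2 member genes, beside 31.2% of all genes, and 2 of 8 is no larger a share. Because RNU6-7 and RNU6-8 share 1 sequence, they are not independent. The RNU6-8 call was lost without D391N replicate 3 and without any of the 3 control libraries (limma adjusted p from 0.10 to 0.22). The RNU6-7 call was lost in the same fits (limma adjusted p from 0.11 to 0.24) and without D391N replicate 2 (limma adjusted p = 0.080). It was also lost with a pseudocount of 0.01, a mean of at least 5 RPKM, no filter, median centring, quantile normalization or no trend (limma adjusted p from 0.051 to 0.066). In all, RNU6-7 was called in 3 and RNU6-8 in 10 of 15 fits.

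The other 3 genes, which share the RNU6-1 sequence, overlapped between conditions and did not pass the test. RNU6-1 had 43.1, 8.75 and 4.81 RPKM in the D391N replicates and 126, 129 and 15.1 RPKM in the control replicates. RNU6-2 had 44.6, 8.23 and 4.98 RPKM in the D391N replicates and 89.0, 106 and 15.8 RPKM in the control replicates. RNU6-9 had 46.0, 8.54 and 5.28 RPKM in the D391N replicates and 112, 141 and 16.1 RPKM in the control replicates. In all 3 genes control replicate 3 was far below the other controls and below D391N replicate 1. The fitted log2 differences were -2.35 (SE 1.07), -2.10 (SE 0.999) and -2.30 (SE 1.06), with limma adjusted p = 0.25, 0.26 and 0.25.

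The 2 sequence sets therefore had different patterns over libraries, but the difference between them was within the spread. The sum of RNU6-7 and RNU6-8 was 25.0, 11.9 and 22.6 RPKM in the D391N replicates and 291, 241 and 149 RPKM in the control replicates, a log2 difference of -3.53 (exact permutation p = 0.10). The sum of RNU6-1, RNU6-2 and RNU6-9 was 134, 25.5 and 15.1 RPKM in the D391N replicates and 327, 375 and 47.0 RPKM in the control replicates, a log2 difference of -2.27 (exact permutation p = 0.20). The log2 ratio of the first sum to the second was -2.41, -1.09 and 0.58 in the D391N replicates and -0.17, -0.64 and 1.66 in the control replicates. The ratios overlapped between conditions, and their mean differed by -1.26 (exact permutation p = 0.40). The replicate number 3 library of each condition had the highest ratio of its group.

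All 30 values of the 5 genes lay above the level that 3 reads would give a 107-nt transcript, 1.83 to 3.05 RPKM. Within 1 library, the highest copy was 1.06 to 1.41 times the lowest among RNU6-1, RNU6-2 and RNU6-9, and 1.01 to 1.36 times the lowest among RNU6-7 and RNU6-8. The posterior variance that BitSeq gave the 5 genes was between 0.846 and 1.76 on the natural log scale, where a transcript without reads has 1.64. Read estimates from this variance, which also holds assignment error, were 0 to 0.618 per gene and library. Lying above the 3-read level therefore does not show that 3 reads were assigned to that copy. The level of a single copy of U6 thus had an error like that of a transcript without reads. Whether reads told the RNU6-7 and RNU6-8 set from the other, by 1 base alone, was not tested.

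The full-length genes held a small part of the signal given to U6-like sequences. Together they took between 0.251% and 2.06% of the summed RPKM of all RNU6 copies. By mean RPKM, RNU6-7 ranked 42, RNU6-8 ranked 47, RNU6-9 ranked 48, RNU6-1 ranked 49 and RNU6-2 ranked 59 among the 1294 copies, and 41 pseudogene copies lay above all 5. RNU6-671P ranked 1.

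RNU6-671P, which matches the full-length genes over its whole length, had 12447, 299 and 4302 RPKM in the D391N replicates and 23814, 18080 and 33019 RPKM in the control replicates. It was lower in each D391N library, and D391N replicate 2 stood far below all the others. Its RPKM was 7.99 to 168 times the sum of the 5 genes, and it took 16.5% of all RNU6 signal in D391N replicate 2 and 42.3% to 51.5% in the other 5 libraries. RNU6-36P, which differs from RNU6-1 by 1 base alone, had 6.29 to 184 times the RPKM of RNU6-1. How many of the reads given to RNU6-671P came from the full-length genes was not tested, since the sequences are the same there. With all 1289 pseudogene copies added to the 5 genes, the log2 difference between conditions was -2.88 (exact permutation p = 0.10), beside -2.79 for the 5 genes alone.

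U6 was set against the snRNAs it works with, U1, U2, U4 and U5, to see whether it moved apart from them. The sum of their 12 genes was 25346, 3537 and 8419 RPKM in the D391N replicates and 35352, 35120 and 45005 RPKM in the control replicates. This sum was also lower in each D391N library, and lowest in D391N replicate 2. The log2 ratio of the U6 sum to this sum was -7.32, -6.56 and -7.80 in the D391N replicates and -5.84, -5.83 and -7.84 in the control replicates. The ratios overlapped, with control replicate 3 the lowest of all 6, and the mean ratio differed by -0.72 (exact permutation p = 0.40). For the sum of the 5 genes, a difference beyond that of the other snRNAs was therefore not larger than the spread. With the pseudogene copies counted as U6, the ratio was lower in each D391N library. Its mean then differed by -0.81 (exact permutation p = 0.10, the smallest possible), so the outcome depended on which copies were counted.

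U4, which pairs with U6 before it enters the spliceosome, had 1084, 33.4 and 557 RPKM in the D391N replicates and 2037, 1683 and 1356 RPKM in the control replicates. It was lower in each D391N library. All 12 snRNA genes had a negative fitted difference, with a median of -2.72 beside -0.09 over all genes, and 7 of the 12 were lower in each D391N library, beside 20.7% of all genes. None passed the threshold in limma (adjusted p from 0.13 to 0.35), and 7 had an unadjusted p under 0.05, beside 22.7% of all genes. The genes with the largest differences, RNU1-3 (log2 difference -3.57) and RNU1-4 (-3.20), encode U1, which recognises the 5′ splice site before U6 does.

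**Figure D2:**
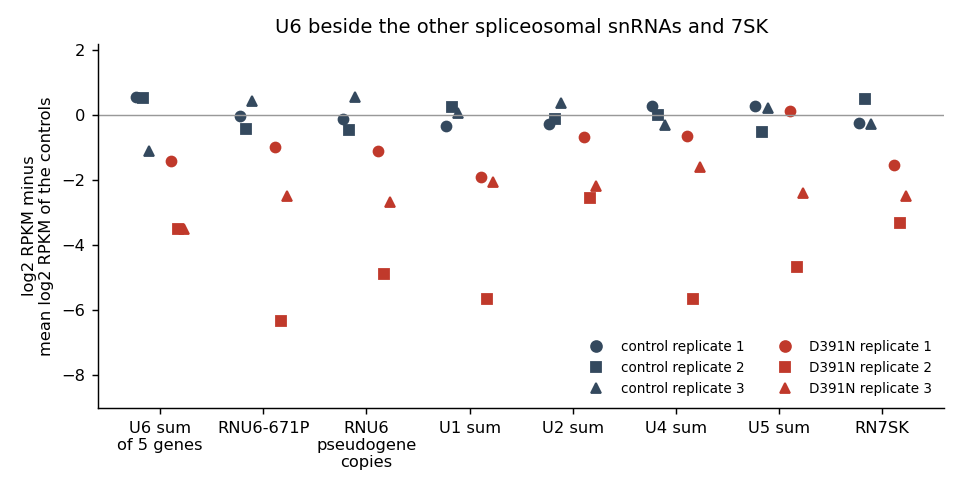
Level of U6, its pseudogene copies, the other spliceosomal snRNAs and 7SK in each library, as log2(RPKM + 0.1) minus the mean of the 3 control libraries. D391N replicate 2 (red squares) is the lowest or close to the lowest library for each RNA, and in U5 a D391N library reaches the controls.

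U6atac (RNU6ATAC), the counterpart of U6 in the minor spliceosome, had 298, 14.1 and 75.8 RPKM in the D391N replicates and 641, 479 and 619 RPKM in the control replicates. It was lower in each D391N library, with a log2 difference of -3.07 (limma, SE 0.99, adjusted p = 0.15). Its partner U4atac (RNU4ATAC) had 519, 95.8 and 381 RPKM in the D391N replicates and 292, 186 and 210 RPKM in the control replicates. These overlapped, with the highest 2 values in D391N libraries and the lowest in D391N replicate 2, and the log2 difference was 0.25 (limma, SE 0.61, adjusted p = 0.84).

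The list of other RNAs that RNA polymerase III makes from promoters of the kind U6 has had 4 tested genes, 7SK (RN7SK), the Y RNAs RNY1 and RNY3 and the RNA of RNase MRP (RMRP). RN7SK, which holds the elongation factor P-TEFb inactive, had 5701, 1677 and 2970 RPKM in the D391N replicates and 13976, 23331 and 13758 RPKM in the control replicates. It was lower in each D391N library, with a log2 difference of -2.43 (limma, SE 0.61, adjusted p = 0.11). RNY3 overlapped between conditions (log2 difference -1.95, limma adjusted p = 0.30). All 4 differences were negative, from -2.43 to -1.21, and none passed the threshold.

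None of the 3 factors passed the threshold, and each overlapped between conditions. USB1, which trims the U6 tail, had 5.44, 4.29 and 3.81 RPKM summed over its transcripts in the D391N replicates and 4.01, 5.01 and 3.803 RPKM in the control replicates. The groups overlapped over almost their whole range. The log2 difference was 0.07 (limma, SE 0.21, 95% interval -0.43 to 0.58, adjusted p = 0.87).

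SART3, the factor that brings U4 and U6 together, had 59.0, 114 and 71.4 RPKM in the D391N replicates and 66.2, 67.2 and 67.7 RPKM in the control replicates. The controls were almost alike, and the D391N libraries lay on both sides of them, with replicate 2 the highest. The log2 difference was 0.22 (limma, SE 0.25, 95% interval -0.37 to 0.82, adjusted p = 0.63), and -0.05 without D391N replicate 2.

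METTL16, which methylates U6 and also reads hairpins of the MAT2A mRNA, had 17.2, 19.5 and 19.6 RPKM in the D391N replicates and 21.6, 23.5 and 17.5 RPKM in the control replicates. The groups overlapped through control replicate 3. The log2 difference was -0.14 (limma, SE 0.16, 95% interval -0.53 to 0.24, adjusted p = 0.63). Its sign depended on scaling: with each library centred on its median, the difference was 0.08, and the median difference of all genes moved from -0.09 to 0.13. Under that scaling RNU6-7 and RNU6-8 had differences of -3.30 and -3.28, and RNU6-7 did not pass the threshold (limma adjusted p = 0.061).

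**Figure D3:**
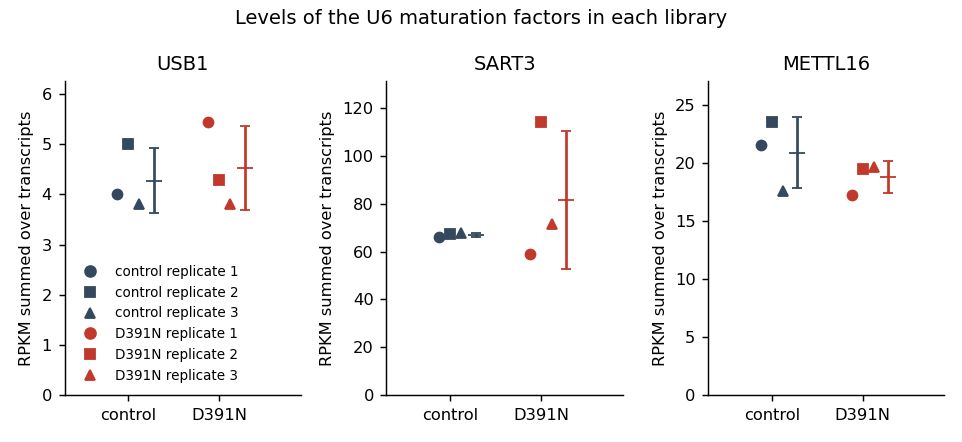
RPKM summed over all transcripts of USB1, SART3 and METTL16 in each library, with the mean and SD (n = 3) of each condition beside the points. The conditions overlap for all 3 factors, and SART3 in D391N replicate 2, at 114 RPKM, stands above the other 5 libraries.

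The levels per length were ordered alike in all 6 libraries, SART3 above METTL16 above USB1, and no value of 1 factor reached that of the next. Against the mean log2 level of the 3 factors, the U6 sum stood at 3.15, 0.81 and 1.096 in the D391N replicates and at 5.10, 4.94 and 3.55 in the control replicates. The U6 sum was lower relative to its factors in each D391N library, by 2.84 on average on the log2 scale, or 7.18-fold (exact permutation p = 0.10, the smallest possible). The intervals of the factors leave differences of up to 0.58 for USB1 and 0.82 for SART3 on the log2 scale.

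Most USB1 transcripts had few estimated reads. By their posterior variance, 12 of 16 had fewer than 3 estimated reads in every library, and so did 5 of the 6 protein-coding transcripts. The variance also holds the error of dividing reads among isoforms, so a low estimate does not show that few reads matched a transcript. Its only transcript with a mean of at least 1 RPKM was ENST00000566082, annotated as a retained intron form of 3888 nt. It had 1.69, 1.71 and 0.92 RPKM in the D391N replicates and 1.11, 1.32 and 1.32 RPKM in the control replicates, which overlapped (log2 difference 0.15, limma adjusted p = 0.86). ENST00000565151, the next in level and also a retained intron form, had 0.335 to 0.692 RPKM. The summed USB1 level thus came mainly from transcripts that are not annotated as coding, which took 73.4% to 90.5% of it. Only 3 transcripts had at least 3 estimated reads in all 6 libraries, with means of 1.35, 0.482 and 0.379 RPKM, beside 4.40 RPKM for the sum. The rest of the sum, and so of the USB1 comparisons, rested on transcripts with fewer than 3 estimated reads in some or all libraries. The sum itself is less exposed to the division of reads among isoforms than these transcripts are.

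Of the 16 SART3 transcripts, 15 had a mean of at least 1 RPKM and none passed the threshold. ENST00000547528, annotated as a target of nonsense-mediated decay, had 13.9, 44.3 and 25.5 RPKM in the D391N replicates and 12.04, 13.95 and 12.4 RPKM in the control replicates. D391N replicates 2 and 3 were above all controls and D391N replicate 1 lay just under the highest control (log2 difference 0.97, limma SE 0.42, adjusted p = 0.30). The other decay-annotated transcript, ENST00000546728, had 4.07, 0.44 and 1.152 RPKM in the D391N replicates and 6.26, 7.19 and 6.54 RPKM in the control replicates. Every D391N library was below every control library (log2 difference -2.25, limma SE 0.70, adjusted p = 0.20). The leading coding transcript, ENST00000431469, had 10.99, 22.7 and 15.4 RPKM in the D391N replicates and 12.3, 10.7 and 12.5 RPKM in the control replicates, which overlapped (log2 difference 0.41, limma adjusted p = 0.52). Coding transcripts took 35.1% to 39.7% of the SART3 level in all 6 libraries, with no difference between conditions beyond the spread (exact permutation p = 0.80).

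Of the 10 METTL16 transcripts, 6 had a mean of at least 1 RPKM and none passed the threshold. ENST00000574752, annotated as a target of nonsense-mediated decay, had 5.83, 8.34 and 6.47 RPKM in the D391N replicates and 4.71, 5.01 and 2.30 RPKM in the control replicates. It was higher in each D391N library (log2 difference 0.83, limma SE 0.36, adjusted p = 0.30). ENST00000576556, which carries the same annotation, had 2.05, 3.52 and 3.53 RPKM in the D391N replicates and 4.31, 4.09 and 5.48 RPKM in the control replicates, lower in each D391N library (log2 difference -0.62, limma SE 0.31, adjusted p = 0.34). ENST00000576976, a coding transcript of 575 nt, had 1.70, 0.72 and 4.32 RPKM in the D391N replicates and 5.97, 6.88 and 4.43 RPKM in the control replicates. It was lower in each D391N library, with D391N replicate 3 close to control replicate 3 (log2 difference -1.63, limma SE 0.60, adjusted p = 0.24). By posterior variance it rested on 2.71, 0.399 and 19.8 estimated reads in the D391N replicates and 25.5, 43.6 and 12.3 in the control replicates.

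The coding transcripts took 29.7%, 7.31% and 30.1% of the METTL16 level in the D391N replicates and 38.2%, 48.2% and 35.0% in the control replicates. The share was lower in each D391N library, at 22.4% ± 13.0 against 40.4% ± 6.91 (SD, n = 3 each, exact permutation p = 0.10, the smallest possible). The other coding transcript, ENST00000263092, is the longest of the gene at 5740 nt and had 0.251 to 31.4 estimated reads per library. These estimates come from its posterior variance, which also holds the error of dividing reads among isoforms. A low estimate therefore does not show that few reads matched this transcript. Whether depth or this division limited the coding share was not tested. Of all 54671 transcripts tested, 25.8% did not overlap between conditions and 0.0604% passed the threshold.

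**Figure D4:**
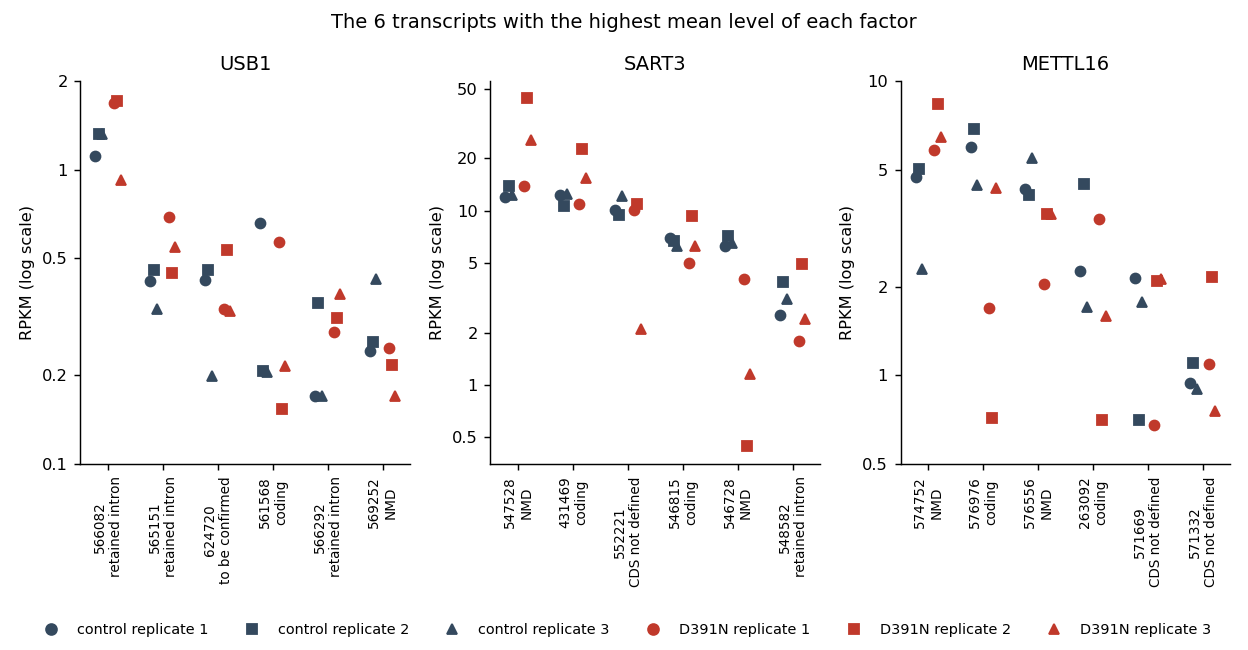
RPKM on a log axis of the 6 transcripts with the highest mean level of USB1, SART3 and METTL16 in each library, named by the last 6 digits of their Ensembl identifier and by their annotated type (NMD, nonsense-mediated decay; CDS, coding sequence). No transcript of the 3 genes passed the threshold, and among those shown ENST00000574752, ENST00000576976 and ENST00000576556 of METTL16 and ENST00000546728 of SART3 do not overlap between conditions.

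Other genes of the U6 pathway were read from 4 lists on transcription, the 3′ end and modification, the LSM ring and U4/U6 assembly. Without the factors above they held 29 genes, all tested. None passed the threshold in limma (adjusted p from 0.12 to 0.99), 2 were lower and 4 higher at an unadjusted p under 0.05, no larger a share than the 22.7% of all genes at that p. The median difference was -0.01 beside -0.09 over all genes.

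Among the 10 genes of U6 transcription, 6 had a negative difference. SNAPC3, a subunit of the complex that binds snRNA promoters, had 33.8, 32.9 and 33.4 RPKM in the D391N replicates and 43.1, 46.0 and 54.5 RPKM in the control replicates. It was lower in each D391N library (log2 difference -0.51, limma adjusted p = 0.13). BDP1, a subunit of TFIIIB, overlapped, with 28.6 RPKM in D391N replicate 2 and 6.29 to 10.6 RPKM in the other libraries (log2 difference 0.77, limma adjusted p = 0.38).

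Among the genes that act on the 3′ end or modify U6, SSB, which encodes La, had 222, 605 and 574 RPKM in the D391N replicates and 242, 267 and 205 RPKM in the control replicates. D391N replicates 2 and 3 were far above all controls and D391N replicate 1 lay among them (log2 difference 0.85, limma adjusted p = 0.26). THUMPD2, which methylates a guanosine of U6, had 24.8, 51.9 and 42.5 RPKM in the D391N replicates and 21.3, 21.6 and 21.0 RPKM in the control replicates. It was higher in each D391N library, as were 10.5% of all genes (log2 difference 0.83, limma adjusted p = 0.16).

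The 7 LSM ring genes all overlapped between conditions, with differences from -0.63 to 0.37. LSM8 (-0.63), the subunit that sets the nuclear ring apart, and LSM7 (-0.48) had the largest differences (limma adjusted p = 0.40 and 0.35). Of the U4/U6 assembly genes, USP15, a deubiquitinase that SART3 binds, had 76.0, 122 and 103 RPKM in the D391N replicates and 63.5, 55.7 and 41.5 RPKM in the control replicates. It was higher in each D391N library (log2 difference 0.90, limma adjusted p = 0.12), as was PRPF3, a protein of the U4/U6 particle (0.51, limma adjusted p = 0.22).

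MAT2A, which makes S-adenosylmethionine and whose mRNA METTL16 binds, had 84.8, 86.6 and 92.2 RPKM in the D391N replicates and 79.8, 84.6 and 69.7 RPKM in the control replicates. The groups did not overlap, though the lowest D391N library and the highest control library were nearly equal (log2 difference 0.18, limma adjusted p = 0.50).

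**Figure D5:**
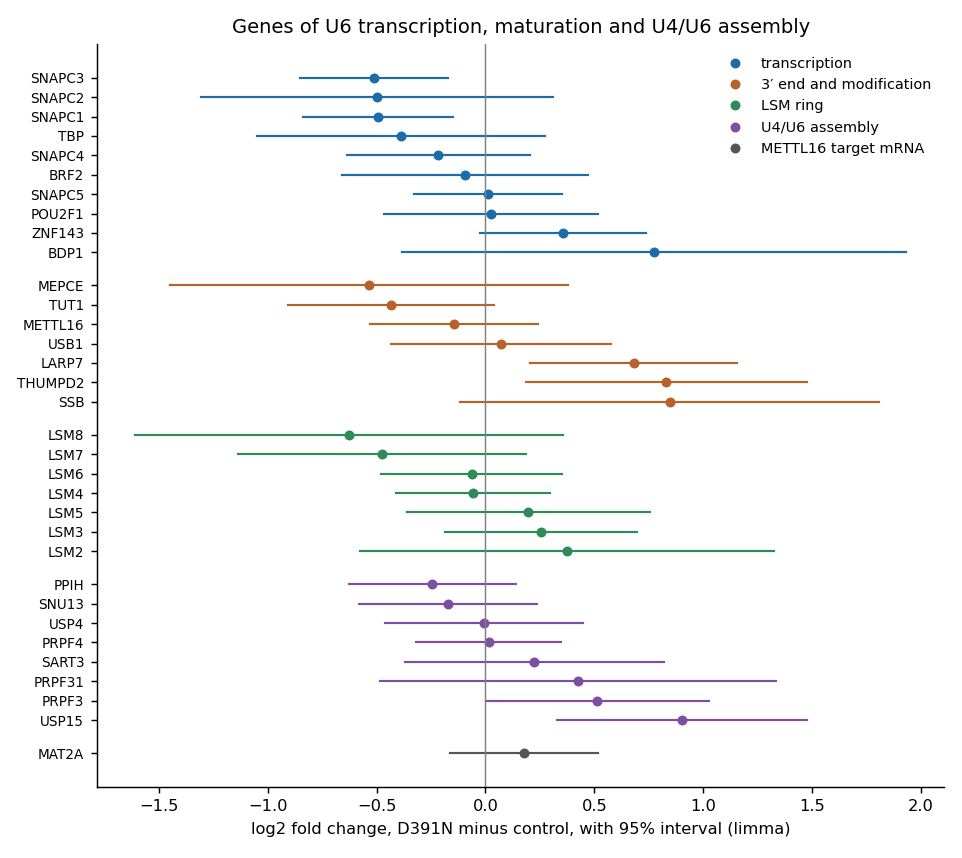
Log2 fold change (D391N minus control) of summed RPKM for the genes of each U6 pathway list and MAT2A, as points with their 95% intervals from limma. None of the genes passed an adjusted p under 0.05, and the differences lie between -0.63 and 0.90.

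For each pattern over the 6 libraries, the 3 most similar of 20714 genes were found by Pearson's r of log2 levels. For the U6 sum they were EIF3K (r = 0.998), ENSG00000272661 (0.997) and PISD (0.994), although EIF3K ranged only from 257 to 322 RPKM. For USB1 they were FLG-AS1 (0.991), ENSG00000272077 (0.985) and HSPA8P15 (0.973). For SART3 they were KLF6 (0.998), EIF3C (0.996) and FLII (0.996), all highest in D391N replicate 2. For METTL16 they were DNAJB12 (0.990), LINC01355 (0.987) and STARD7 (0.981). With 6 points and this many genes, such values describe only these libraries.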

How the data were processed

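The authors removed adapters (cutadapt), mapped the RNA-seq reads to the GRCh38 transcriptome of Ensembl, both coding and non-coding (Segemehl), and obtained transcript levels from BitSeq. The table deposited by the authors holds a natural log of RPKM per transcript and library, which is the mean of BitSeq's posterior, beside the variance of that posterior. Read totals and the CLIP data were not used here. Reads of near-identical copies are divided by BitSeq, so levels of isoforms and copies depend on each other.

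Natural log values were exponentiated to RPKM, summed per gene and changed to log2(RPKM + 0.1). Genes (20714) and transcripts (54671) whose mean reached 1 RPKM were tested with limma 3.58.1 (trend) in R 4.3.3, with calls at a Benjamini-Hochberg adjusted p under 0.05. Single values were tested by two-sided exact permutation of the 6 libraries, with all splits enumerated in Python. Tables used Python 3.11.15, pandas 2.3.3, numpy 2.4.6 and scipy 1.17.1, and figures matplotlib 3.10.9. In data simulated from these libraries, limma recovered 22% of 200 transcripts and 83% of 200 genes that had been lowered by 3 log2 units, and made 1 and 7 false calls. Estimated reads and depth come from posterior variances and the level of transcripts without reads, and cover counting and assignment error only. Symbols matched 88.2% of gene identifiers, and of 60 list genes 3 (RNU11, RNU12 and RPPH1) were not matched.

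The members and lists were chosen with earlier results of these data known. Named are the 8 members, the 2 highest transcripts of each factor, the 2 genes with the largest difference in each list, MAT2A and the 3 genes most like each pattern. RNU6-671P, RNU6-36P, the copies with the RNU6-1 sequence, ENST00000263092, ENST00000546728, ENST00000576556, RNY1, RMRP and the U4 sum were chosen after their values were seen. Alternatives were other pseudocounts, filters, scalings, no trend, a replicate block, pseudogene copies added and each library left out. The exponential of the mean plus 0.5 times the variance was added after seeing the data. The sequences of the U6 transcripts are not reported here.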

Additional observations from a re-analysis of the deposited data

How the results depend on the processing

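The U6 sum was lower with D391N under all 7 other settings (log2 difference -2.88 to -2.57) and without each library (-3.48 to -2.44). Relative to its factors and to the other snRNAs, each with 5 other settings, it was also lower (-2.93 to -2.70 and -0.81 to -0.57, and without each library -3.58 to -2.40 and -1.39 to -0.39). In limma, 33 transcripts were called, and 142 with a pseudocount of 1, 17 with a mean of at least 5 RPKM, 18 without a filter, 52 without trend, 7 with the replicate block and 2 to 4984 without 1 library. Of genes, 29 were called, and 61 with a pseudocount of 1, 16 with 0.01, 6 with a mean of at least 5 RPKM, 18 without a filter, 14 with median centring, 17 with quantile normalization, 2 with the block and 2 to 2267 without 1 library. The highest numbers, 4984 and 2267, came without D391N replicate 1. Of the 8 members, 2 were called, and 1 with a pseudocount of 0.01, a mean of at least 5 RPKM, no filter, median centring, quantile normalization or no trend, 0 with the block and 0 to 2 without 1 library. Of their transcripts, 0 were called at an adjusted p under 0.05, and 2 with a pseudocount of 1, 1 with quantile normalization and 0 to 4 without 1 library. The cause was not tested.

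Signs turned for USB1 (-0.067 to 0.19 without 1 library, negative without D391N replicate 1 or control replicate 3), SART3 (-0.047 to 0.43, negative without D391N replicate 2), RNU4ATAC (-0.23 to 0.98, negative without D391N replicate 1 or 3) and METTL16 (0.075 with median centring). Replicate numbers were not treated as pairs in the main fits. Same-numbered deviations correlated at 0.09, 0.06 and -0.11 over transcripts and 0.07, 0.22 and -0.11 over genes. Such values cannot show whether the libraries were paired. With the replicate block both RNU6-7 and RNU6-8 had an adjusted p of 0.11 in limma, and the U6 sum an exact p of 0.25, the smallest that 3 pairs allow. Depth or the division of reads among isoforms, which were not told apart, limits the coding USB1 transcripts. Of these, 5 of 6 had fewer than 3 estimated reads in every library. By posterior variance, the full-length U6 genes likewise had fewer than 3 estimated reads each in every library.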

Other observations

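Without D391N replicate 1, 8 of the 15 named genes of the lists passed the threshold in limma, beside 10.9% of all 20734 genes tested in that fit. The named genes had been chosen for large differences or as MAT2A, so their share is not comparable with that of all genes. Those that passed were LSM7, USP15, SSB, THUMPD2, RNU6ATAC, RNU1-3, RN7SK and RNY3, with log2 differences of -0.77, 1.09, 1.32, 1.14, -4.13, -4.54, -2.89 and -3.08 and Benjamini-Hochberg adjusted p between 0.019 and 0.049. The SART3 transcript ENST00000547528 then rose by 1.39 (limma adjusted p = 0.045). Over 15 fits their adjusted p ranged up to 0.62 for the genes and 0.54 for the transcript, and none passed with all 6 libraries.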
